A study of Aspergillus nidulans with 32 samples.

Results

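The expression of 5 genes that regulate sexual development in Aspergillus nidulans was followed through starvation, refeeding and renewed starvation of mycelium in shaken liquid culture. The genes were nsdD (AN3152), nsdC (AN4263), steA (AN2290), nosA (AN1848) and rosA (AN5170), chosen by name from a table of 10681 genes. All 5 passed the filter on low counts and were among the 10022 genes tested. The deposited table gives gene identifiers, and the reference annotation, used for names only, gives the symbol of nsdD and steA among these 5. The other symbols are background knowledge.

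A. nidulans mates with itself, and its sexual cycle ends in ascospores inside a closed fruiting body, the cleistothecium, which is nursed by thick-walled Hülle cells. NsdD, a GATA-type factor, and NsdC, a zinc finger factor, are each needed for fruiting bodies to form, and both also hold back conidiation, the asexual formation of spores. SteA, a homeodomain and zinc finger protein, acts below the pheromone-response kinase cascade and is needed for cleistothecia. NosA and RosA are related zinc cluster proteins with opposite roles: NosA is needed for fruiting bodies to ripen, while RosA represses the start of sexual development under unfavourable conditions such as submerged growth. Light, air, nutrients and submersion are known to decide between the asexual and the sexual route in this fungus.

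Polyadenylated RNA was sequenced in 32 libraries of 16 cultures, 2 technical libraries for each, and the cultures formed 8 groups of 2, lettered A and B. All cultures grew at 37 °C in minimal medium with 50 mM glucose and 10 mM nitrate. Grown cultures spent 24 h in this medium, and starved cultures spent 20 h in it, followed by 4 h in a salt solution that lacked carbon and nitrogen sources. Naive refed cultures had 24 h of growth and 2 h in fresh medium, and pre-starved refed cultures had the same 2 h of fresh medium after 20 h of growth and 4 h in salt. Refed cultures of either history were then kept for 1 h in the salt solution (naive salt, pre-starved salt) or for 1 h in medium used up by 48 h of growth of the fungus (naive used, pre-starved used). Starved and pre-starved cultures thus grew for 20 h and had a further change of medium, so starvation, shorter growth and the extra medium change cannot be told apart where such cultures are compared with the others. Strains named in the labels are WT FGSC#4 and RKIS42.17, an alcA(p)-sGFP-aflR strain whose name puts aflR under the alcA promoter, and the labels name supplements for pabaA1, pabaB22 and biA1 auxotrophs, but not which strain gave which sample. The series title names transcriptional memory, so the comparison of naive with pre-starved cultures in the same medium is the one the study turns on.

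Library totals ran from 19634577 to 33202687 counts and culture totals from 39526910 to 66121549 counts. The lowest count of any of the 5 regulators in a culture was 138, for rosA in grown culture A. Values are CPM, counts scaled to a common library size by trimmed means, and changes are log2 fold changes from a single edgeR fit of all 16 cultures, with the standard error (SE) and a p adjusted over all tested genes. A gene was called higher or lower when that p was under 0.05, with n = 2 cultures per group. The labels call A and B biological replicates without saying whether they were separate inoculations. Each p-value sets a change against the spread between such cultures, estimated from all 8 groups together. With library totals in place of trimmed means, the median log2 change over all tested genes shifted by 0.50 in the first starvation, by -0.67 on refeeding and by up to 0.76 elsewhere, so each change is relative to the bulk of genes. In these bulk samples, fewer cells of a type and less RNA per cell cannot be told apart.

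The 5 regulators behaved in 4 ways across the 8 groups. The gene nosA was low in every growing or refed group and high in every group without fresh nutrients, whatever its history. The gene steA rose in the same places and stood highest in cultures starved for the second time. The gene nsdD fell under the first starvation and was highest under the second, and nsdC was nearly flat. The fall of nsdD and the flatness of nsdC rested on scaling by trimmed means and did not hold with library totals. The repressor gene rosA had the widest range and differed between kinds of starvation.

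**Figure D1:**
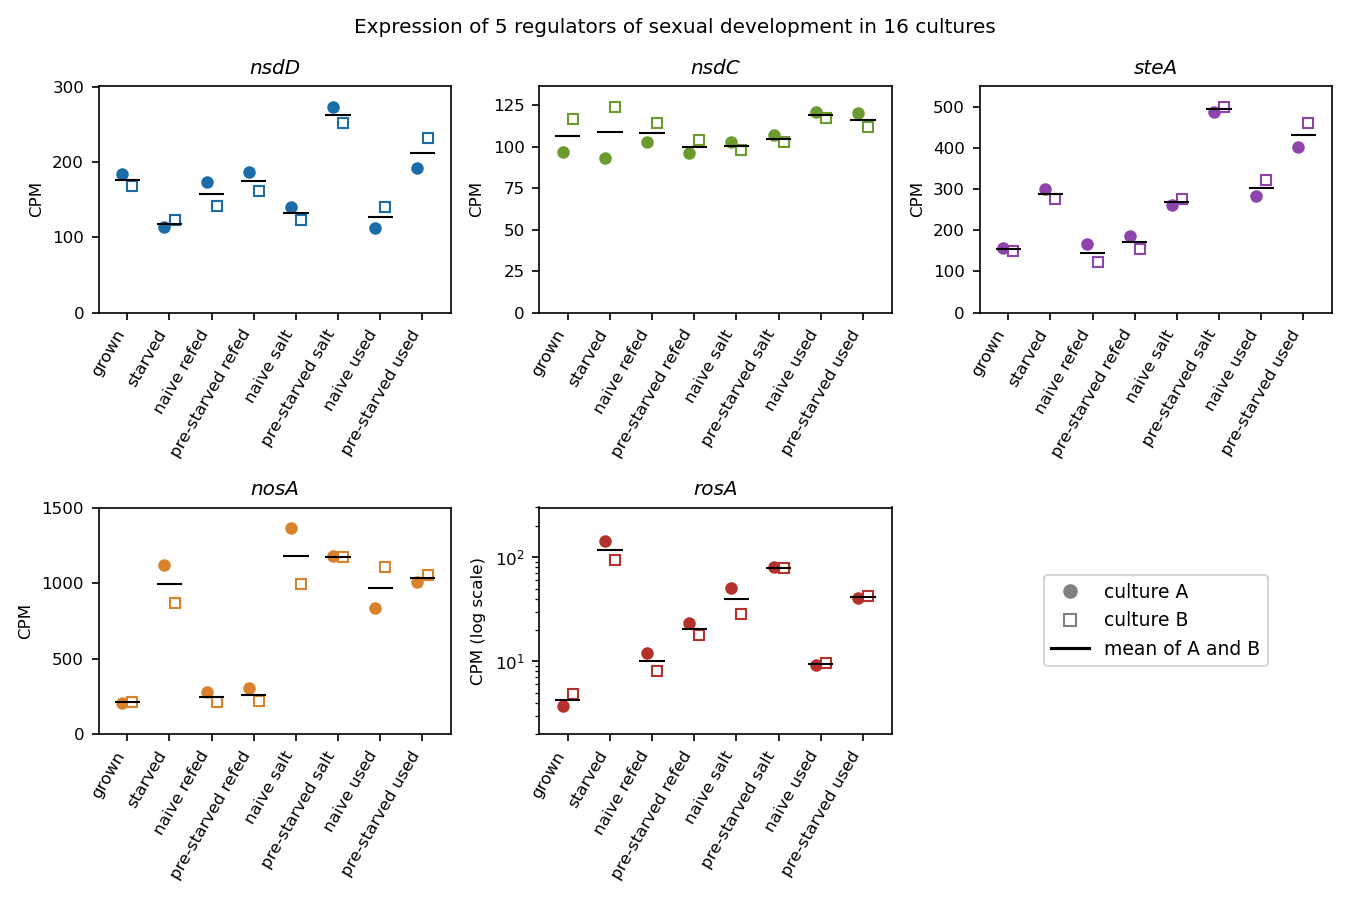
CPM of each regulator (vertical axis, linear from 0 except for rosA, which is on a log scale) in cultures A (filled circles) and B (open squares) of the 8 groups, with the mean of A and B as a line. The nosA points fall into a low set of grown and refed cultures and a high set of all others, while rosA spans from 3.74 CPM in a grown culture to 142 CPM in a starved one.

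The activator nsdD had 185 and 169 CPM in grown cultures A and B, 173 and 142 in naive refed, and 187 and 162 in pre-starved refed cultures. Under starvation it had 113 and 123 CPM in starved cultures, 140.2 and 123 in naive salt, and 113 and 140.4 in naive used medium. In the second starvation it had 274 and 252 CPM in pre-starved salt and 192 and 231 in pre-starved used medium. The 6 naive or first-starved cultures without fresh nutrients were thus the lowest, and the 4 cultures starved a second time were the highest, above every grown culture. From the lowest to the highest group mean the ratio was 2.22. In the order of group means, starved overlapped with naive used and that with naive salt, naive refed overlapped with pre-starved refed and that with grown, while pre-starved used and pre-starved salt each lay clear of the group below. The low end of this order rests on trimmed means. With library totals the means were 128 CPM in pre-starved refed, 130 in naive refed, 137 in starved, 145 in grown and 156 in naive salt cultures. Pre-starved salt cultures then had 327 CPM.

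The gene nsdC, the zinc finger activator, had 96.8 and 117 CPM in grown, 93.2 and 124 in starved, 103 and 114 in naive refed and 95.8 and 104 in pre-starved refed cultures. In the last step it had 103 and 97.7 CPM in naive salt, 107 and 103 in pre-starved salt, 121 and 117 in naive used and 120.1 and 112 in pre-starved used medium. Every group overlapped with its neighbours in the order of means. The highest group mean was 1.19 times the lowest, a range smaller than that of nearly all genes: 0.110% of tested genes had a smaller one, and the median range was 4.15-fold. The 2 cultures of a group differed by up to 1.33-fold, more than the group means did. This small range holds for trimmed means only. With library totals nsdC had a mean of 73.0 CPM in pre-starved refed and 130 in pre-starved salt cultures.

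The gene steA, which encodes the target of the pheromone-response cascade, had 158 and 149.6 CPM in grown, 167 and 123 in naive refed and 187 and 155 in pre-starved refed cultures. It had 300.5 and 275 CPM in starved cultures, 261 and 276 in naive salt and 282 and 323 in naive used medium. In the second starvation it reached 486 and 500.0 CPM in salt and 403 and 460.4 in used medium. These values form 3 tiers with no overlap between them, of growth or refeeding, first starvation, and second starvation, and within the first and the second tier neighbouring groups overlapped. The ratio of the highest to the lowest group mean was 3.41.

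The gene nosA, needed for fruiting bodies to ripen, had 207 and 212 CPM in grown, 282 and 212 in naive refed and 303 and 216 in pre-starved refed cultures. It had 1121 and 870.1 CPM in starved cultures, 1367 and 999 in naive salt and 1180.3 and 1172 in pre-starved salt, and 838 and 1107 in naive used and 1012 and 1057 in pre-starved used medium. No culture lay between 303 and 838 CPM. Cultures A and B of a group differed by up to 1.40-fold, and the groups of the high set overlapped with their neighbours in the order of means, except that pre-starved salt lay clear of pre-starved used medium.

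The repressor gene rosA had 3.74 and 4.82 CPM in grown cultures and 142 and 93.2 in starved ones. After refeeding it had 12.1 and 7.98 CPM in naive and 23.2 and 18.1 in pre-starved cultures. In the last step it had 50.1 and 28.4 CPM in naive salt and 80.6 and 78.0 in pre-starved salt, against 9.14 and 9.54 in naive used and 40.6 and 42.6 in pre-starved used medium. Naive used medium was the one group without fresh nutrients in which rosA overlapped with its level after refeeding. The group means spanned 27.4-fold, a wider range than that of 86.1% of tested genes, and cultures A and B of a group differed by up to 1.76-fold.

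Compared per length, as CPM per kb of the deposited exon length, nosA had the highest level of the 5 in every group, from 71.1 in grown to 401 in naive salt cultures. In grown cultures nsdD followed at 61.8 ± 3.98 (SD, n = 2), steA at 52.3 ± 1.97, nsdC at 37.4 ± 4.91 and rosA at 1.39 ± 0.248 CPM per kb. In starved cultures steA had 97.8 ± 6.23, nsdD 41.4 ± 2.56, rosA 38.2 ± 11.2 and nsdC 38.1 ± 7.67 CPM per kb, so the repressor had come level with nsdD and nsdC. Among tested genes rosA stood above 17.4% of genes by CPM per kb in grown and above 70.1% in starved cultures.

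The first starvation was measured by setting starved beside grown cultures. Of the 5 regulators 3 were called higher and 1 lower, where 38.8% of all tested genes were called higher and 34.6% lower, and the median log2 change was 0.90 against 0.10 for all tested genes. The repressor gene rosA rose by 4.78 (SE 0.32, adjusted p 4.22e-08), more than 96.4% of genes did, nosA by 2.25 (SE 0.22, adjusted p 1.31e-06) and steA by 0.90 (SE 0.15, adjusted p 1.24e-04). The gene nsdD fell by 0.58 on the log2 scale (SE 0.15, adjusted p 0.00335), a call that was lost with library totals (log2 change -0.08, adjusted p 0.676). The change of nsdC was 0.03 (95% interval -0.26 to 0.31, adjusted p 0.862), and with library totals nsdC was called higher by 0.53.

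The return to growth was measured by setting pre-starved refed beside starved cultures. The 4 regulators called in the first starvation moved back (nsdD not with library totals): 1 was called higher and 3 lower, with 35.2% of tested genes called higher and 41.1% lower, and the median was -0.75 against -0.15 for all genes. This comparison shares the starved cultures with the one before, so opposite signs are in part built in. Within 2 h of fresh medium rosA fell by 2.51 on the log2 scale (SE 0.29, adjusted p 4.47e-06), nosA by 1.94 (SE 0.22, adjusted p 4.19e-06) and steA by 0.75 (SE 0.15, adjusted p 4.74e-04). The gene nsdD rose by 0.56 (SE 0.15, adjusted p 0.00371), whereas with library totals its change had the opposite sign and was not called (-0.10). The change of nsdC was -0.12 (adjusted p 0.413), and it was called lower with library totals (-0.79) and without starved culture A (-0.32).

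The effect of fresh medium without starvation, together with a later harvest, was measured between naive refed and grown cultures. Of the regulators 1 was called higher and 0 lower, in a comparison with 2.13% of tested genes called higher and 0.978% lower, and the medians were 0.02 for the regulators and -0.02 for all genes. That gene was rosA, with a log2 change of 1.23 (SE 0.30, adjusted p 0.0458), and its cultures did not overlap. Leaving out any 1 of the 4 cultures ended the call, with log2 changes of 1.06 (grown A left out), 1.42 (grown B), 0.89 (naive refed A) and 1.50 (naive refed B). The other changes were -0.16 for nsdD, 0.02 for nsdC, -0.09 for steA and 0.24 for nosA, with 95% intervals from -0.48 for nsdD to 0.70 for nosA.

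**Figure D2:**
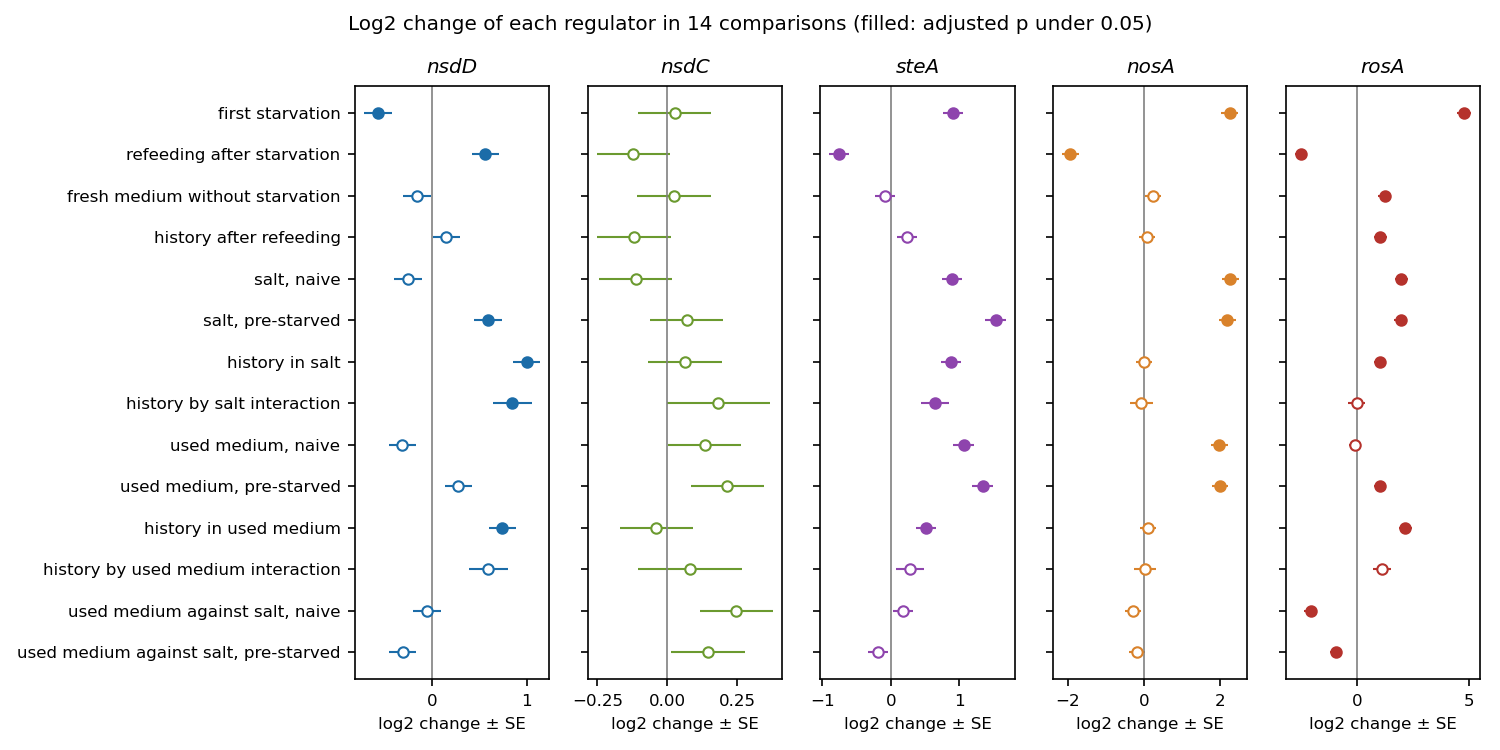
Log2 change of each regulator with its standard error (horizontal axis, a different range per panel) in the 14 comparisons, filled where the adjusted p was under 0.05. No nsdC point is filled, and for nosA the filled points are the moves into or out of starvation and none of the comparisons between histories.

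Differences between the histories that remained after 2 h in fresh medium were measured between pre-starved refed and naive refed cultures. Of the 5 regulators 1 was called higher and 0 lower, where 21.4% of tested genes were called higher and 21.3% lower, with medians of 0.15 and 0.03. The repressor gene rosA had 20.6 ± 3.63 CPM in pre-starved and 10.0 ± 2.92 CPM in naive cultures, a log2 change of 1.04 (SE 0.28, adjusted p 0.0105). Its cultures did not overlap, but the call was lost without naive refed B (0.77) or without pre-starved refed A (0.84). The log2 changes of nsdD (0.15), nsdC (-0.12), steA (0.24) and nosA (0.07) were not called, with 95% intervals that reached from -0.41 for nsdC to 0.56 for steA. Without naive refed A, steA was called (0.48).

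The move from fresh medium into salt for 1 h was measured in both histories. In naive cultures 3 regulators were called higher and 0 lower, with 36.3% of tested genes called higher and 39.1% lower and medians of 0.89 and -0.03. The gene nosA rose by 2.26 (SE 0.22, adjusted p 1.07e-06), rosA by 1.97 (SE 0.28, adjusted p 3.81e-05) and steA by 0.89 (SE 0.15, adjusted p 1.24e-04). The values of nsdD (-0.26, adjusted p 0.127) and nsdC (-0.11, adjusted p 0.447) were not called, and with library totals both had the opposite sign, nsdC then called higher (0.42). A single hour without carbon and nitrogen thus moved nosA and steA about as far as 4 h did, 2.26 against 2.25 and 0.89 against 0.90, while rosA moved by 1.97 against 4.78. Those comparisons differ in their starting groups and in growth before the shift, and the difference between them was not tested.

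In pre-starved cultures the same move raised 4 regulators and lowered 0, where 40.2% of tested genes were called higher and 36.4% lower, with medians of 1.53 and 0.09. The rises were 2.18 for nosA (SE 0.22, adjusted p 1.48e-06), 1.94 for rosA (SE 0.28, adjusted p 3.71e-05), 1.53 for steA (SE 0.15, adjusted p 1.05e-06) and 0.59 for nsdD (SE 0.15, adjusted p 0.00262). The change of nsdC was 0.07 (adjusted p 0.643), called higher only with library totals (0.84).

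The difference between these responses was tested as an interaction. Of the regulators 2 were called higher in the pre-starved response and 0 lower, with 17.1% of tested genes called higher and 12% lower, and medians of 0.18 and 0.12. For nsdD the response of pre-starved cultures exceeded that of naive ones by 0.85 (SE 0.21, adjusted p 0.00979), from 0.70 to 0.99 when 1 of the 8 cultures was left out, each time called. For steA it did so by 0.64 (SE 0.21, adjusted p 0.0359). That call was lost with DESeq2 (0.51), in a fit of these groups alone (0.56), and without naive refed A (0.40), pre-starved refed B (0.51), naive salt A (0.60) or B (0.68) or pre-starved salt A (0.66) or B (0.62). The interactions of nosA (-0.08, 95% interval -0.73 to 0.57) and rosA (-0.02, -0.86 to 0.81) were not called and took the opposite sign with library totals (0.16 and 0.21).

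Pre-starved salt cultures were then compared directly with naive salt cultures. Of the regulators 3 were called higher and 0 lower, where 24.7% of tested genes were called higher and 18.2% lower, with medians of 0.88 and 0.04. The gene nsdD had 263 ± 15.3 against 132 ± 12 CPM, higher by 1.00 on the log2 scale (SE 0.15, adjusted p 2.23e-04), and steA at 493 ± 9.78 against 268 ± 10.9 CPM (0.88, SE 0.15, adjusted p 5.40e-04). Both cultures of each gene were higher after pre-starvation. The repressor gene rosA stood at 79.3 ± 1.86 against 39.3 ± 15.4 CPM (1.01, SE 0.27, adjusted p 0.00975). This value rests on the spread of the naive cultures: without naive salt B rosA was not called (0.66), and without naive salt A it was 1.48. The change of nosA was -0.01 (95% interval -0.47 to 0.45), with the opposite sign under library totals (0.06), and that of nsdC was 0.06 (-0.22 to 0.35), with the opposite sign under DESeq2 (-0.06).

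Used medium set the regulators apart in another way. In naive cultures moved from fresh to used medium, 2 were called higher and 0 lower, with 38.1% of tested genes called higher and 38% lower and medians of 0.13 and 0.02. The gene nosA rose by 1.98 (SE 0.22, adjusted p 3.26e-06) and steA by 1.06 (SE 0.15, adjusted p 2.61e-05). The repressor gene rosA stood at 9.34 ± 0.278 against 10.0 ± 2.92 CPM and was not called (log2 change -0.11, 95% interval -0.72 to 0.51, adjusted p 0.743). With library totals (0.25) and without naive refed A (0.23) its sign was positive, again without a call. The change of nsdD was -0.32 (adjusted p 0.0650), called lower without naive refed B (-0.45), without naive used B (-0.48) and with DESeq2 (-0.33), and of opposite sign with library totals (0.05). For nsdC it was 0.13 (adjusted p 0.366), called higher with library totals (0.50).

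In pre-starved cultures the move to used medium raised 3 regulators and lowered 0, where 39.9% of tested genes were called higher and 37.1% lower, with medians of 1.01 and 0.07. The rises were 1.99 for nosA (SE 0.22, adjusted p 3.02e-06), 1.34 for steA (SE 0.15, adjusted p 3.31e-06) and 1.01 for rosA (SE 0.27, adjusted p 0.00470). The changes of nsdD (0.28, adjusted p 0.101) and nsdC (0.22, adjusted p 0.153) were not called, while library totals called both higher (0.88 and 0.82), and nsdD was called without pre-starved used A (0.41). In the interaction of history and used medium 0 regulators were called, where 15.1% of tested genes were called higher and 12.3% lower, with medians of 0.28 and 0.08. Beside that count of 0 from edgeR, DESeq2 called 2 regulators higher, where it called 1588 of 9968 tested genes higher and 1485 lower. They were rosA (in edgeR 1.12, SE 0.39, adjusted p 0.0526) and nsdD (in edgeR 0.59, SE 0.21, adjusted p 0.0505). Leaving out naive refed B brought both under the threshold (1.39 and 0.73), and nsdD was also called without pre-starved refed A (0.70), naive used B (0.77) or pre-starved used A (0.72).

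Pre-starved used cultures stood above naive used cultures in 3 of the 5 regulators and below in 0, with 21.6% of tested genes called higher and 18.1% lower and medians of 0.51 and 0.01. The gene rosA stood at 41.6 ± 1.37 against 9.34 ± 0.278 CPM, a log2 change of 2.16 (SE 0.29, adjusted p 1.30e-04) that was larger than that of 98.4% of tested genes and lay between 2.12 and 2.19 with 1 culture left out. The activator nsdD was higher by 0.74 (SE 0.15, adjusted p 0.00186), at 212 ± 28.2 against 126 ± 19.7 CPM. The gene steA was higher by 0.51 (SE 0.15, adjusted p 0.0150), a call lost without naive used A (0.42) or pre-starved used B (0.42). The log2 change of nosA was 0.09 (95% interval -0.37 to 0.55) and that of nsdC -0.04 (-0.32 to 0.25), the latter of opposite sign with library totals (0.02).

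The kinds of starvation in the last step, used medium and salt, were compared within a history. Between naive used and naive salt cultures 0 regulators were higher and 1 lower, with 8.09% of tested genes called higher and 6.51% lower and medians of -0.06 and -0.01. The gene rosA was lower in used medium by 2.07 on the log2 scale (-2.07, SE 0.28, adjusted p 6.01e-04), and 0.848% of tested genes had a lower value. Between pre-starved used and pre-starved salt cultures 0 were higher and 1 lower, with 9.02% called higher and 8% lower and medians of -0.19 and -0.05. The gene was again rosA (-0.93, SE 0.27, adjusted p 0.0341), not called without pre-starved salt A (-0.91) or B (-0.95) or pre-starved used A (-0.90) or B (-0.96). In the naive comparison the other 4 regulators had log2 changes of -0.06 for nsdD, 0.25 for nsdC, 0.17 for steA and -0.28 for nosA. In the pre-starved one the values were -0.31, 0.15, -0.19 and -0.19 in that order, and none of these was called.

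**Figure D3:**
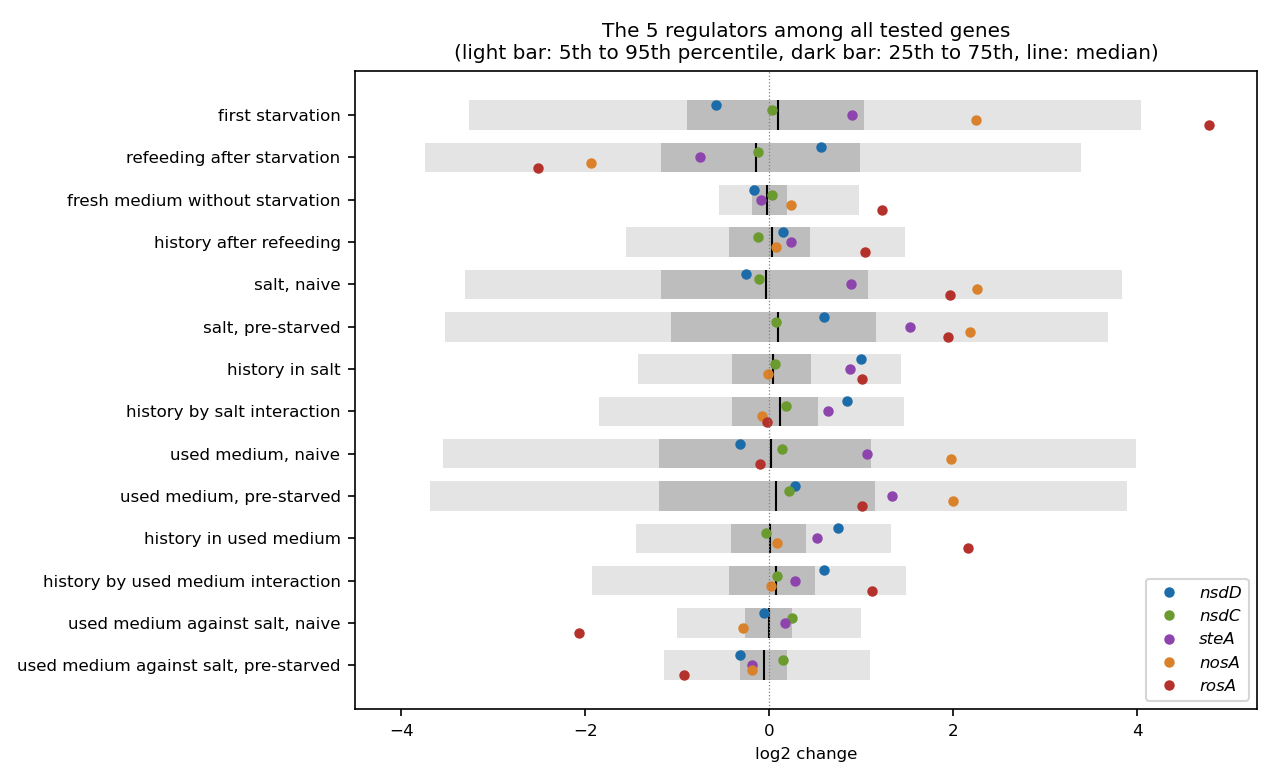
Log2 change of the 5 regulators (coloured points) in each comparison over the distribution of all 10022 tested genes, with the 5th to 95th percentile as a light bar, the 25th to 75th as a dark bar and the median as a line. The point of rosA lies outside the light bar in the first starvation (4.78), the fresh medium comparison (1.23), history in used medium (2.16) and the naive comparison of used medium with salt (-2.07).

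The relation of the activator nosA to the related repressor rosA shifted with the medium. The ratio of nosA to rosA, both per kb, was 57.6 and 45.9 in grown cultures A and B and 8.24 and 9.72 in starved ones. After refeeding it was 24.3 and 27.7 in naive and 13.6 and 12.5 in pre-starved cultures. In salt it was 28.4 and 36.6 in naive against 15.3 and 15.7 in pre-starved cultures, and in used medium 95.4 and 121 against 25.9 and 25.8. In each of the 3 media the ratio was thus lower in both pre-starved cultures than in both naive ones, and naive used medium had the highest ratio of all groups. These ratios restate the values above and were not tested on their own.

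Likeness of pattern was measured as the root mean square difference (RMS) between log2 CPM values centred per gene over the 16 cultures, a measure in which the size of the changes counts as well as their shape, so distances grow with the range of a gene. Among the regulators nsdD and nsdC were the closest pair, 0.42 apart, and nsdC and rosA the farthest, 1.58 apart. Between these, steA and nosA were 0.57 apart, rosA and nosA 1.08, and nsdD and rosA 1.55. Many other genes were closer: 1043 tested genes to nsdD than nsdC was, 2106 to steA than nosA was and 255 to rosA than nosA was. Closest to rosA, the regulator with the widest range, were AN6873 at 0.442, AN8174 at 0.451 and AN0799 at 0.477. Closest to nosA were AN10670 at 0.142, AN5169 at 0.167 and AN0675 at 0.200, and closest to steA AN5924 at 0.124, AN3836 at 0.163 and AN7997 at 0.166. For nsdD they were AN1684 at 0.173, AN5118 at 0.180 and AN1796 at 0.203, and for nsdC, where a flat gene is like any other flat gene, AN2265 at 0.107, AN2492 at 0.113 and AN4579 at 0.119. The reference annotation gives none of these genes a symbol. It places AN5169 next to rosA in gene order. The genes on both sides of rosA, AN5169 (log2 change 2.33) and AN5171 (2.22), were called higher in the first starvation, beside 38.8% of tested genes. So were those on both sides of nosA, AN1847 (0.54) and AN1849 (1.31). Beside nsdD, AN3153 rose (1.48) and AN3151 fell (-3.29), and beside nsdC AN4264 rose (1.40). The other neighbour of nsdC and both neighbours of steA were not called. None of the 5 regulators overlaps a neighbour in that annotation, which bears on counts from a kit that keeps no strand.

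The genes around these regulators were taken as 6 lists of 55 genes, all of them tested. In mating type and pheromone signalling, 7 of 13 were called higher and 3 lower in the first starvation, with 38.8% of tested genes called higher and 34.6% lower and medians of 0.36 and 0.10. On refeeding 7 were lower and 3 higher, with 41.1% of tested genes lower and 35.2% higher and medians of -0.58 and -0.15. The gene preB, for a pheromone receptor, rose by 1.75 (SE 0.25, adjusted p 3.80e-05) with starvation, to 33.3 ± 8.88 from 9.91 ± 0.437 CPM, and fell back on refeeding (-2.03). The gene gpgA, for a G protein gamma subunit, fell in the first starvation (-0.69, SE 0.10, adjusted p 5.36e-05; -0.19 and not called with library totals) and rose on refeeding (0.59), with the opposite sign under library totals (-0.07). In salt, preB rose in naive (1.95) and in pre-starved cultures (2.32), and fadA, for a G protein alpha subunit, fell in naive (-1.34) and in pre-starved ones (-0.73), the latter reversed with library totals (0.03).

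From the kinase cascade that acts on SteA, values are given here for steC and mpkB only. The transcript of mpkB did not follow that of steA in every step. In salt, steC, for the first kinase of the cascade, responded more in pre-starved than in naive cultures (interaction 0.77, SE 0.15, adjusted p 0.00302). The gene mpkB, for the last kinase, was lower in pre-starved than in naive cultures after refeeding (-0.46, SE 0.11, adjusted p 0.00477), where steA was not called, and lost its call without naive refed B (-0.37). It was also lower in salt (-0.41, SE 0.11, adjusted p 0.00825), where steA was higher, and lost that call without pre-starved salt B (-0.38). Of the 13 genes of the list 5 were higher and 1 lower in pre-starved salt against naive salt, where 24.7% of tested genes were higher and 18.2% lower, with medians of 0.27 and 0.04. In used medium 4 were higher and 3 lower, beside 21.6% and 18.1% of tested genes, with medians of 0.11 and 0.01.

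Among velvet and light regulators, which tie development to light and secondary metabolism, 6 of 8 were called higher and 1 lower in the first starvation, beside 38.8% and 34.6% of tested genes, with medians of 0.89 and 0.10. The gene laeA, for a global regulator of secondary metabolism that works with velvet proteins, had the largest rise (2.07), and the lower gene was velB (-0.62), not called with library totals (-0.11). In pre-starved against naive salt 5 of the 8 were higher and 1 lower, beside 24.7% and 18.2% of tested genes, with medians of 0.62 and 0.04. They included laeA, higher by 1.48 (SE 0.10, adjusted p 1.25e-06), and, lower, fphA, the phytochrome gene, by -0.42 (SE 0.10, adjusted p 0.00379). The gene vosA, for a velvet protein of spores, responded more to salt after pre-starvation (interaction 1.34, SE 0.17, adjusted p 2.18e-04), with 4 of the 8 genes called higher in that interaction and 0 lower, beside 17.1% and 12% of tested genes, and medians of 0.51 and 0.12. In used medium 4 of 8 were higher and 1 lower in pre-starved against naive cultures, beside 21.6% and 18.1% of tested genes, with medians of 0.35 and 0.01.

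**Figure D4:**
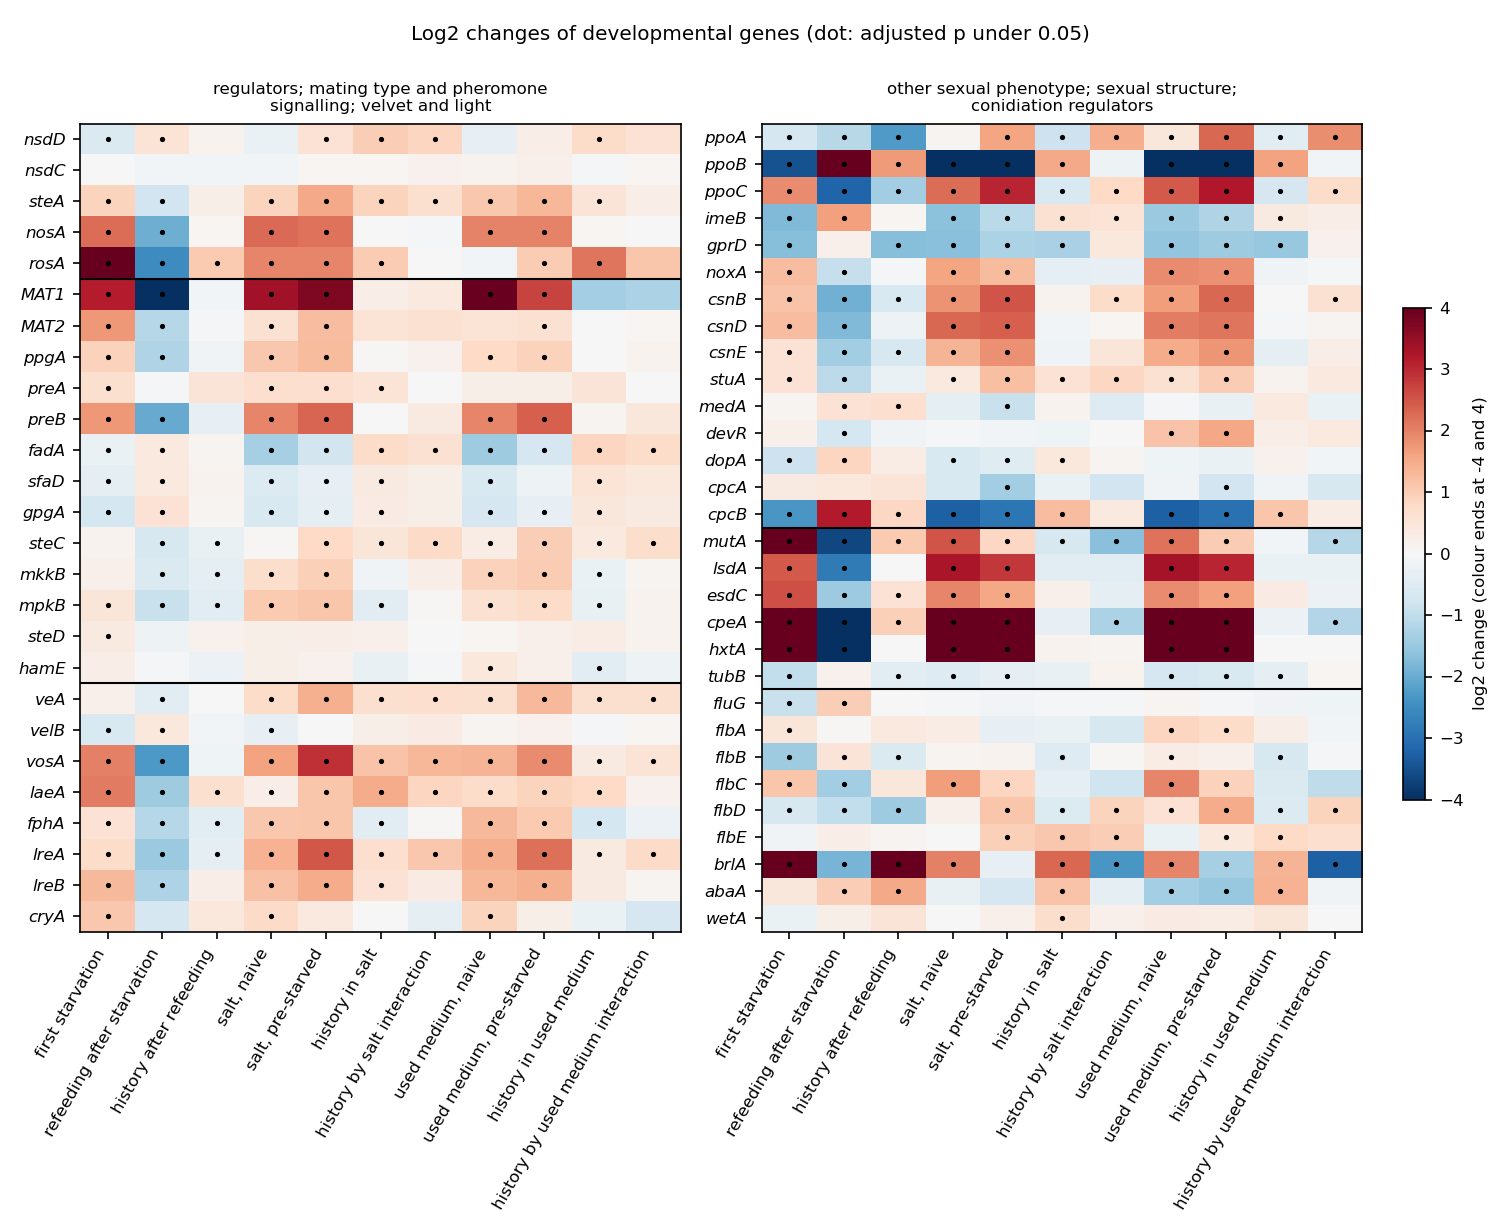
Log2 changes (colour, ending at -4 and 4) of the 5 regulators and of the listed genes in 11 comparisons, with a dot where the adjusted p was under 0.05. The structural gene cpeA reaches the upper end of the colour range in every move into starvation. In the first starvation hxtA, mutA and brlA reach it too. The gene ppoB reaches the lower end in every 1 h move into salt or used medium, and nsdC has no dot.

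Among other genes with a sexual phenotype, 6 of 15 were called higher and 6 lower in the first starvation, shares near the 38.8% and 34.6% of all tested genes, with medians of 0.19 and 0.10. The oxylipin synthase genes moved apart: ppoC rose by 1.89 (SE 0.14, adjusted p 6.88e-08), to 1645 ± 58.7 from 443 ± 51.6 CPM, and ppoB fell from 74.7 ± 3.61 to 6.62 ± 0.0340 CPM (-3.49, SE 0.15, adjusted p 1.02e-09). Another such gene, ppoA, was lower in pre-starved than in naive refed cultures (-2.28, SE 0.16, adjusted p 6.69e-07) and responded more to salt (interaction 1.45, SE 0.21, adjusted p 4.82e-04) and to used medium (interaction 1.86, SE 0.21, adjusted p 1.10e-04). In the direct comparison of histories in salt 5 of the 15 genes were higher and 3 lower, beside 24.7% and 18.2% of tested genes, with medians of -0.11 and 0.04.

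Among genes expressed in sexual structures, hxtA and cpeA rose with starvation by more than any of the 5 regulators. Of the 6 genes 5 were called higher and 1 lower in the first starvation, beside 38.8% and 34.6% of tested genes, with medians of 3.83 and 0.10. The counts were the same in both moves into salt and both into used medium, where 36.3% to 40.2% of tested genes were higher and 36.4% to 39.1% lower, and the list medians lay between 2.20 and 2.88. The hexose transporter gene hxtA rose by 6.58 (SE 0.30, adjusted p 1.36e-09) in the first starvation, to 1518 ± 1.08 from 15.9 ± 0.386 CPM, and fell back on refeeding (-6.39). The catalase-peroxidase gene cpeA rose in salt by 7.39 in naive (SE 0.22, adjusted p 6.58e-11) and by 6.12 in pre-starved cultures (SE 0.20, adjusted p 1.12e-10). The lower gene was tubB, an alpha-tubulin gene (-0.99, SE 0.11, adjusted p 5.83e-06, in the first starvation), which with library totals had the opposite sign in both moves into salt (0.02 in naive, 0.41 in pre-starved). Between histories in salt 0 of the 6 were higher and 1 lower, beside 24.7% and 18.2% of tested genes, with medians of -0.31 and 0.04. This was mutA, at 3.93 CPM in pre-starved against 6.11 in naive salt (-0.63). Its call was lost with library totals (-0.56), with technical library 1 alone (-0.56) and with any culture of these groups left out.

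Markers of Hülle cells and of conidia moved with the groups. The summed level of the Hülle cell markers mutA and cpeA, of which cpeA makes up nearly all, was 14.4 to 16.9 CPM in grown and naive refed and 27.7 to 33.7 in pre-starved refed cultures. It was 1286 to 1361 CPM in starved cultures, 2463 to 2535 in naive salt and 1730.4 to 2248 in pre-starved salt, and 2521 to 2729.9 in naive used and 1948 to 2488 in pre-starved used medium. The 2 markers differed in order. By group mean, mutA was highest in starved cultures, at 27.5 CPM, against 3.93 to 6.11 in the later salt and used medium groups. The mean of cpeA was 1296 CPM in starved cultures and 1985 to 2621 in those later groups. The sum of 5 conidial markers was 16.1 to 20.0 CPM in grown and naive refed cultures, 722 to 1114 in starved and 1646 to 2048 in pre-starved refed cultures. In salt it was 28.2 to 31.7 CPM in naive and 178 to 448 in pre-starved cultures, and in used medium 27.2 to 31.7 and 116 to 252. In the first starvation all 4 genes of the conidial marker list, these without wetA, were called higher, beside 38.8% of tested genes. None of these 7 markers was at 0 in any group. The hydrophobin gene rodA made up most of the conidial sum in starved and pre-starved groups, while wetA, a regulator of spore ripening, stayed between 2.35 and 4.14 CPM in the group means. In each medium the conidial sum was higher in both pre-starved cultures than in both naive ones, through rodA, while the markers did not all move that way. In used medium dewA, another spore wall hydrophobin gene, was lower in pre-starved cultures (0.773 against 1.92 CPM, log2 change -1.31, adjusted p 0.0195). That call was lost without naive used A (-1.37) or B (-1.26) or pre-starved used A (-1.07). In the same comparison yA, for a spore pigment laccase, was not called (12.5 against 14.3 CPM). After refeeding dewA was under 1 CPM in both histories and not called (0.0893 against 0.158 CPM). The sum was higher beside the higher rosA after refeeding and beside the higher rosA, nsdD and steA in salt and in used medium, and the part of conidial cells in these results was not tested. No marker list for vegetative hyphae was used, so the labelled tissue was checked against these markers only.

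Regulators of conidiation, the process that NsdD and NsdC hold back, had counts near those of all genes, with 3 of 9 called higher and 3 lower in the first starvation, beside 38.8% and 34.6% of tested genes and medians of -0.13 and 0.10. After refeeding 2 were higher and 2 lower in pre-starved against naive cultures, beside 21.4% and 21.3% of tested genes and medians of 0.39 and 0.03. The gene brlA, the switch of conidiophore formation, rose by 7.06 (SE 0.35, adjusted p 2.78e-09) in the first starvation. There nsdD fell with trimmed means but was not called with library totals. Within salt, pre-starved cultures had more brlA than naive ones (2.30, SE 0.27, adjusted p 5.31e-05), as they had more nsdD. For brlA the difference was already there after refeeding, at 101 ± 37.4 against 4.04 ± 0.281 CPM (4.64, SE 0.31, adjusted p 6.06e-07). For nsdD it was not called at that point (0.15). In salt brlA had 80.6 ± 17.1 CPM in pre-starved and 16.4 ± 2.00 in naive cultures. The interaction of history and salt was negative for brlA (-2.34, SE 0.39, adjusted p 0.00109) and positive for nsdD (0.85).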

How the data were processed

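Polyadenylated RNA of mycelium was sequenced in single-end reads of 50 nt from TruSeq v2 libraries, per the labels' protocols, and the authors mapped the reads to the FGSC A4 genome. Tools listed in the submitters' processing notes, without roles, are HTSeq, BWA, Trimmomatic 0.36, edgeR and limma. The gene models the authors counted on were not given in the sources used here. Raw counts per gene and library, as the authors deposited them, were used. Of the deposited log2 columns, the exon length in kb was used for levels per kb, and the log2 FPKM per group was not used.

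The 2 technical libraries of a culture (chi-square per degree of freedom 2.12 to 2.29, against 44.2 to 272 between cultures of a group) were summed. With R 4.3.3, edgeR 4.0.16 kept 10022 of 10681 genes by filterByExpr (minimum count 10, minimum total 15). Sums were scaled by TMM, a model with 1 mean per group covered all 16 cultures, and 14 contrasts were tested, 2-sided, with the quasi-likelihood test (8 residual and 4.07 prior degrees of freedom). P was adjusted by Benjamini-Hochberg over all tested genes, with a threshold of 0.05. Intervals use the t distribution with residual plus prior degrees of freedom. A prior count of 2 was used for log2 CPM in the measure of likeness. The procedure was tested on simulated data.

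Alternatives were library totals, no filter, a replicate block, either technical library alone, only the groups compared, DESeq2 1.42.0, and each culture left out. The text names the 5 regulators in every comparison, per list and comparison the called gene with the largest rise and the largest fall where the higher mean is at least 1 CPM, and per regulator the 3 genes of most like pattern. Any of these may be left out. The regulators and lists were chosen with earlier results of these data known. Gene symbols in the lists come from background knowledge. For 39 of the 55 the ASM1142v1 reference annotation, consulted for names and gene order, had a symbol, for 36 the same one.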

Additional observations from a re-analysis of the deposited data

Results flagged for a closer look

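In 2 regulators the response to salt differed between naive and pre-starved cultures by a test of the difference itself, the interaction term of the edgeR fit. For nsdD the difference was 0.85 on the log2 scale (SE 0.21, adjusted p 0.00979): the log2 change in salt was -0.26 in naive and 0.59 in pre-starved cultures, and it stayed called with each of the 8 cultures left out. For steA the difference was 0.64 (SE 0.21, adjusted p 0.0359), from 0.89 in naive to 1.53 in pre-starved cultures, and the call was lost under 6 of the 8 such omissions.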

How the results depend on the processing

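Of the 14 counts of regulators called, 6 moved by more than 1.5 times under some alternative. For fresh medium without starvation it fell from 1 to 0 with library totals, with technical library 2 alone and without any culture (0 to 0). After refeeding it ran from 0 to 2 with 1 culture left out. For the history by salt interaction it fell from 2 to 1 with technical library 1 alone, with only the groups compared and with DESeq2, and ran from 1 to 2 with 1 culture left out. For used medium in pre-starved cultures it rose from 3 to 5 with library totals, which there called 5438 of 10022 tested genes higher and 2585 lower. For the history by used medium interaction the count rose from 0 to 2 with library totals and with DESeq2 and to 1 with technical library 2 alone, with only the groups compared and with the replicate block, and ran from 0 to 2 with 1 culture left out. In that interaction library totals called 2517 of 10022 tested genes higher and 833 lower, and DESeq2 called 1588 of 9968 higher and 1485 lower. For used medium against salt in pre-starved cultures the count ran from 0 to 1. Smaller shifts were a rise by 1 with library totals in naive salt (3 to 4), pre-starved salt (4 to 5) and naive used medium (2 to 3), the last also with DESeq2 and technical library 2. Library totals called 4962 of 10022 tested genes higher in naive salt, 5910 in pre-starved salt and 4710 in naive used medium. In the same order 2737, 2205 and 3042 genes were called lower. With 1 culture left out the count ran from 4 to 5 for refeeding, 2 to 3 for naive used medium, 3 to 4 for pre-starved used medium and 2 to 3 for history in salt and in used medium. The counts for the first starvation and for naive used against salt were the same in every alternative run. In the first starvation the regulators behind the count nevertheless changed with library totals. There nsdD lost its call (-0.08) and nsdC was called higher (0.53). The cause was not tested.

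Signs reversed with library totals for nsdD on refeeding (-0.10), after refeeding between histories (-0.022), in naive salt (0.27) and in naive used medium (0.046), and for nsdC in naive salt (0.42), history in used medium (0.023) and pre-starved used against salt (-0.019). They also did for nosA in history after refeeding (-0.098), history in salt (0.057) and its interaction (0.16), for rosA in the salt interaction (0.21) and naive used medium (0.25), for gpgA (-0.074) and velB (-0.25) on refeeding, velB (0.19) and tubB (0.016) in naive salt, and fadA (0.035) and tubB (0.41) in pre-starved salt. DESeq2 reversed nsdC in the first starvation (-0.021), pre-starved salt (-0.018) and history in salt (-0.062), and nosA in the used medium interaction (-0.023). Reversed were also nsdC in the first starvation with only the groups compared (-0.0059), in fresh medium with technical library 2 (-0.00043) and in history in used medium with technical library 1 (0.00042), and rosA in the salt interaction with technical library 2 (0.044).

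The letters A and B did not pair the cultures across all 8 groups: over 28 pairs of groups the correlation of deviations ran from -0.28 to 0.36, with 10 over 0.1. In subsets, seen only in these data, letters did go together: starved, naive refed, pre-starved refed and naive salt correlated at 0.15 to 0.25, and pre-starved salt, naive used and pre-starved used at 0.14 to 0.36, while every pair between these sets was below 0 (-0.28 to -0.048). A single block over all groups does not describe such a structure. With the replicate block rosA was called in the used medium interaction (1.11, adjusted p 0.0353), nosA reversed in history in salt (0.0033) and rosA in the salt interaction (0.00027), and no other call of a regulator changed.

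With 1 culture left out, a lone culture being assumed to vary like the other groups, the log2 change crossed 0 for nsdC in the first starvation (-0.19 to 0.22), refeeding (-0.32 to 0.097), fresh medium (-0.11 to 0.16) and history in used medium (-0.092 to 0.013), for steA in fresh medium (-0.33 to 0.12) and for nsdD in naive used against salt (-0.23 to 0.091). For nosA it did so in history after refeeding (-0.19 to 0.29), in salt (-0.22 to 0.24) and in used medium (-0.098 to 0.29) and in the interactions (-0.30 to 0.19 for salt, -0.20 to 0.28 for used medium), and for rosA in the salt interaction (-0.38 to 0.44) and naive used medium (-0.37 to 0.23). None of these was called in the full fit. Dropping the filter changed no call of the regulators.

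Library totals moved the share of calls that were higher by over 10 percentage points in 11 of the comparisons, for the first starvation from 52.8% to 69.8%, and DESeq2 did so for history in salt (57.6% to 44.5%), its interaction (58.7% to 45.0%) and naive used against salt (55.4% to 39.9%). With 2 cultures per group, the SE of a log2 change ran from 0.13 for nsdC to 0.32 for rosA outside the interactions, which limits the differences that could be called.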
